A study of Homo sapiens with 6 samples.

Results

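The sites described here are the 5-methylcytosine (m5C) sites of GNAS and DESI1, 2 genes that each carried a listed site in their 5′ untranslated region (5′ UTR). The members were chosen by gene name from the lists of called sites, so the values that selected them were their own listing and their 5′ UTR position. A listing required, among other filters of the study, an m5C level of at least 10% and a coverage of at least 20 reads in a library. The choice by name gave 3 sites of 542 in the whole series. The first lay in the 5′ UTR of GNAS, another in the 5′ UTR of DESI1, and the last in the 3′ UTR of DESI1. Together they made up 11 of 1222 listings. The RNA was poly(A)-selected from wildtype HEK293T, an established human line of embryonic kidney origin, and converted with bisulfite, which turns unmethylated cytosine into a base read as T while m5C is still read as C. The lysate had been made with cycloheximide, which holds ribosomes on the mRNA, and separated on a sucrose gradient into free RNA, a small subunit fraction, a large subunit fraction, monosomes with 1 ribosome, light polysomes with 2 to 5 ribosomes, and heavy polysomes with more than 5. All 6 fractions shared the genotype, and the labels name no treatment of the cells. There was 1 library per fraction and no replicate, so every interval and test below covers counting error only and compares libraries, not conditions.

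Between 172 and 233 sites were listed per library, with a median coverage of 68 to 75 reads per listed site. Reads at listed sites summed to 764521 in the free library and to 50416 in the heavy polysome library. The median level of all listed sites was between 16.7% and 19.2%, so the libraries differed little in that respect. Where a library's list lacks a site, low coverage, a low level or another of the study's calling filters can be the reason. The level of the site there is not known.

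In mRNA, m5C is deposited by methyltransferases of the NSUN family. Type II sites are followed by UCCA and are made by NSUN6, while Type I sites, often followed by G-rich bases, are attributed to NSUN2. The 5′ UTR is the stretch that the small ribosomal subunit scans before it meets the start codon. GNAS encodes the alpha subunit of the stimulatory G protein, which couples hormone receptors to adenylyl cyclase and thereby raises cAMP. It is an imprinted locus in which several alternative promoters and first exons feed a shared set of downstream exons. DESI1 encodes a desumoylating isopeptidase, an enzyme that removes the small modifier SUMO from target proteins.

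The sequences around the 5′ UTR sites are shown because they lack a following UCCA in both. The bases following the C were GAG at GNAS and GTG at DESI1, and the likeness of the contexts was not measured. Each run holds 30 nt of the spliced transcript in DNA letters, 5′ to 3′, read from the GRCh37 genome, and the capitals mark the methylated C and the next 3 bases.
GNAS 5′ UTR: ggggcccggcCGAGgcaataagagcggcgg
DESI1 5′ UTR: cgagggccgtCGTGgccgccgtcgccacgg
Neither was followed by UCCA, and the same held for the DESI1 3′ UTR site, so all 3 sites were counted as Type I. Here that class held every site placed in an exon and not followed by UCCA, and which enzyme methylated a site was not tested. The DESI1 3′ UTR site had 1 G among the next 3 bases. Both 5′ UTR sites had 2 G among the next 3 bases, as did 219 of the 339 Type I sites placed in an exon (64.6%, with 2 or more). The triplet GAG of the GNAS site followed 24 of the 528 sites placed in exons (4.55%), whereas the triplet GTG of the DESI1 5′ UTR site followed only 3 (0.568%).

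The GNAS site (ENSG00000087460) was at position 57466440 on the plus strand of chromosome 20 in GRCh37. In the GENCODE 44 annotation lifted to that build, it lay in the 5′ UTR, in exon 1 of 12 of transcript GNAS-211. It was nucleotide 84 of that transcript, 342 nt upstream of the start codon. Among 77 annotated GNAS transcripts, 41 spanned the position and only 2 of them had it in an exon, GNAS-211 and GNAS-201, while it was intronic in the other 39. The canonical transcript GNAS-210 and GNAS-207 begin 36 nt downstream of the site. By this annotation a canonical GNAS mRNA lacks the methylated base, and reads over it come from transcripts that start upstream. Which transcripts gave the reads in each library was not tested. The same start codon is annotated for GNAS-211, GNAS-201, GNAS-207 and GNAS-210.

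The DESI1 5′ UTR site (ENSG00000100418) was at position 42016869 on the minus strand of chromosome 22. It lay in exon 1 of 6 of the canonical transcript DESI1-201, 178 nt from the 5′ end and only 26 nt upstream of the start codon. The median distance to the start codon over the 57 sites placed in 5′ UTRs was 112 nt. The GNAS site was among the farthest, with 6 such sites farther away, and the DESI1 site among the nearest, with 5 closer.

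**Figure D1:**
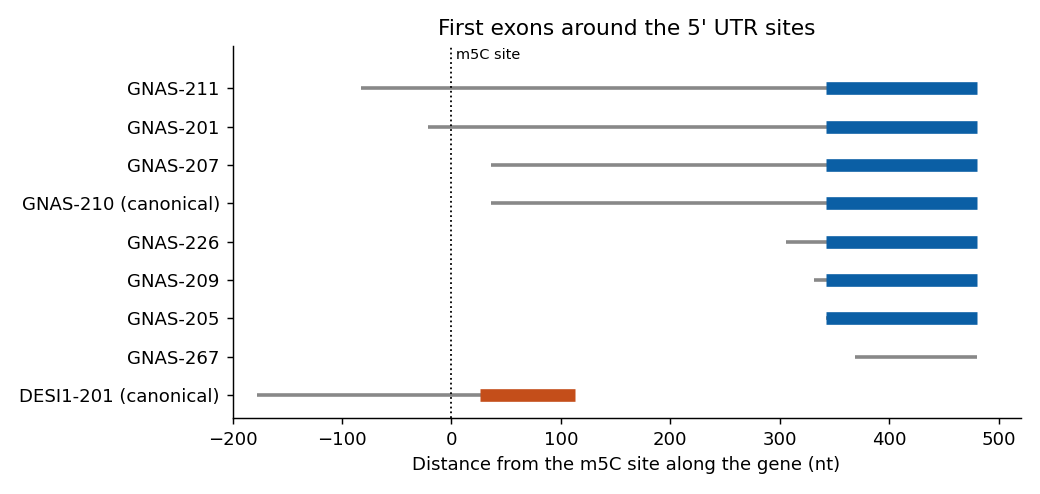
First exons of annotated GNAS and DESI1 transcripts around the 5′ UTR sites, with the distance from the m5C site in nt on the x axis (dotted line at 0), untranslated sequence as a grey line and coding sequence as a coloured bar. Of the GNAS transcripts drawn, GNAS-211 and GNAS-201 cross the site, and the canonical GNAS-210 starts 36 nt beyond it; in DESI1-201 the coding sequence starts 26 nt after the site.

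Both 5′ UTRs were rich in G and C, which for bisulfite sequencing means many other cytosines near the site. The 101 nt around the GNAS site were 83.2% GC and held 39 C, and only 8 of the 528 placed sites had a higher GC content. The window around the DESI1 5′ UTR site was 73.3% GC with 37 C, with 29 of the 57 sites in 5′ UTRs higher, and it lay above the median of 61.4% over all placed sites. The annotated 5′ UTR of GNAS-211 held 220 C and that of DESI1-201 held 85, and in each case 1 of them was listed. The other cytosines were not listed in any library, which does not show that they were unmethylated. The 21 nt around either 5′ UTR site occurred nowhere else in the genome. After conversion of every C to T, the GNAS sequence was still unique, while the DESI1 sequence had 1 other match.

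At the GNAS site the m5C level was highest where RNA carried a ribosomal subunit and lowest in heavy polysomes. It was 44.2% in the small subunit library (377 of 853 reads read as C, 95% Wilson interval 40.9 to 47.5%). In the large subunit library it was 49.2% (184 of 374, 44.2 to 54.2%). The monosome library gave 37.3% (41 of 110, 28.8 to 46.6%). The levels in these libraries stood above those in both polysome libraries. Light polysomes gave 28.7% (27 of 94, 20.6 to 38.6%), and heavy polysomes gave 14.5% (9 of 62, 7.83 to 25.3%). The site was not listed in the free library. The highest level was 3.39 times the lowest. The neighbours in this order were not all separate, since the large subunit exceeded the small subunit by an amount within counting error (small minus large, -5.0 percentage points, 95% Newcombe interval -11 to 1.05), and the small subunit exceeded the monosome library by an amount within it as well (6.92 points, -2.96 to 16.0). The large subunit exceeded the monosome library by 11.9 points (1.33 to 21.8). The monosome library exceeded light polysomes by 8.55 points, an amount within counting error (-4.43 to 20.9). Among all listed sites, GNAS ranked 27 of 199 by level in the small subunit library, 22 of 233 in the large subunit library and 149 of 225 in the heavy polysome library. Among listed 5′ UTR sites it ranked 1 of 22 in the small subunit library, 3 of 25 in the large subunit library and 15 of 19 in heavy polysomes.

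**Figure D2:**
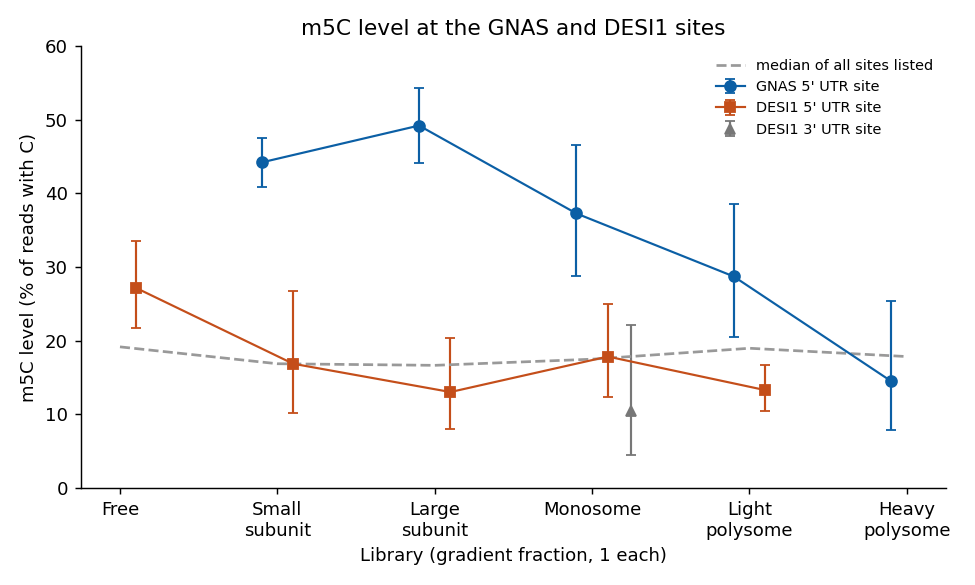
The m5C level (percent of reads read as C) of the GNAS and DESI1 sites in each library along the gradient, with bars for 95% Wilson intervals, no point where a site was not listed, and a dashed line for the median of all sites listed in the library. GNAS goes from 49.2% in the large subunit library to 14.5% in heavy polysomes, and the DESI1 5′ UTR site stands at 27.2% in the free library and between 13.0% and 17.9% in the other 4 libraries that list it.

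The comparison of heavy polysomes with each lighter fraction addresses the question the study put to these libraries, whether methylation differs between mRNA engaged by many ribosomes and mRNA engaged by few or none. For every site listed in both libraries of a pair, C and T reads were compared by Fisher's exact test (two-sided), the p-values were adjusted over those sites by the Benjamini-Hochberg method, and 0.05 was the threshold. Because the genes were proposed with results of these data known, the tests state the reach of counting error and are not independent support. The level of GNAS was higher in the small subunit library than in heavy polysomes by 29.7 percentage points (95% interval 18.4 to 37.2, Fisher's exact test, adjusted p = 2.64e-05). In that pair 18 of 85 sites (21.2%) passed the threshold, 15 of them higher in the small subunit library. The large subunit library exceeded heavy polysomes by 34.7 points (22.7 to 43.1, exact test, adjusted p = 2.84e-06), where 12 of 112 sites (10.7%) passed. The monosome library exceeded heavy polysomes by 22.8 points (9.01 to 34.2, exact test, adjusted p = 0.0103), where 18 of 90 (20.0%) passed. The last of these was past the threshold by a small margin and was lost under the stricter Benjamini-Yekutieli adjustment of the exact test (adjusted p = 0.0522). The step between the polysome libraries themselves did not pass. Light polysomes stood 14.2 points above heavy polysomes (0.644 to 26.1, exact test, adjusted p = 0.328), in a pair where 5 of 132 sites (3.79%) passed. GNAS was thus called in 3 of the 4 comparisons with heavy polysomes that could be made. Between 10.7% and 21.2% of all sites were called in those 3, and the whole sets of shared sites had median differences of 1.87 to 2.76 points in the same direction. The heavy polysome value behind every one of these differences came from 9 C reads.

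Light polysomes were set against the lighter libraries as well, a comparison added after the data were seen because DESI1 was not listed in heavy polysomes. GNAS was 20.5 points higher in the large subunit library (9.42 to 30.1, exact test, adjusted p = 0.00734), and this was the largest rise of the 127 sites shared by that pair, of which 12 (9.45%) passed. It was 15.5 points higher in the small subunit library (5.10 to 24.3, exact test, adjusted p = 0.0485), where 9 of 105 (8.57%) passed. That call was lost when sites in protein-coding genes alone were tested (exact test, adjusted p = 0.0504), and under Benjamini-Yekutieli adjustment (exact test, adjusted p = 0.254). In the monosome library GNAS was 8.55 points higher, which did not pass (-4.43 to 20.9, exact test, adjusted p = 0.722), and 9 of 105 sites (8.57%) did. At GNAS the large subunit library was thus called higher than either polysome library. The small subunit library was called higher than heavy polysomes, and higher than light polysomes by a margin that did not hold under those settings. The monosome library was called higher than heavy polysomes and not than light polysomes, and whether these differences differ from each other was not tested.

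The DESI1 5′ UTR site had its highest level in free RNA. In the free library 59 of 217 reads were read as C, a level of 27.2% (21.7 to 33.5%). The small subunit library gave 16.9% (13 of 77, 10.1 to 26.8%), and the large subunit library gave 13.0% (15 of 115, 8.07 to 20.4%). The other libraries remained at similar levels. The monosome library gave 17.9% (25 of 140, 12.4 to 25%) and light polysomes 13.3% (62 of 466, 10.5 to 16.7%). The site was not listed in heavy polysomes. Apart from the free library, the 4 levels spanned 4.81 points, and their intervals all overlapped. These levels lay not far above the lowest level in the lists, 10%, and a level under that would have left the site unlisted. The site was less methylated than GNAS in every library that listed both, by 27.3 points in the small subunit library (16.9 to 34.8), 36.2 in the large subunit library (27.2 to 43.2), 19.4 in monosomes (8.32 to 30.2) and 15.4 in light polysomes (6.58 to 25.6).

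The free library exceeded light polysomes at DESI1 by 13.9 points (7.44 to 20.8, exact test, adjusted p = 0.00028), in a pair where 7 of 63 sites (11.1%) passed. The small subunit (3.58 points, -3.97 to 13.9), the large subunit (-0.261 points, -6.28 to 7.61) and the monosome library (4.55 points, -1.87 to 12.2) did not differ from light polysomes past the threshold, and their adjusted p by the exact test was 0.675, 1.0 and 0.712. The free library was also compared with the other libraries, again as an addition made after the data were seen. It exceeded the large subunit library by 14.1 points (4.96 to 22.2, exact test, adjusted p = 0.0604), where 3 of 70 sites (4.29%) passed and each of those was lower in free RNA. With at least 50 reads in both libraries the adjusted p became 0.0440. Against the small subunit library the free library was 10.3 points higher (-1.0 to 19.5, exact test, adjusted p = 0.387), with 2 of 91 sites (2.2%) called. Against monosomes it was 9.33 points higher (0.30 to 17.7, exact test, adjusted p = 0.271), with 7 of 74 (9.46%) called. DESI1 was thus called in 1 of 7 comparisons, that of free RNA with light polysomes.

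**Figure D3:**
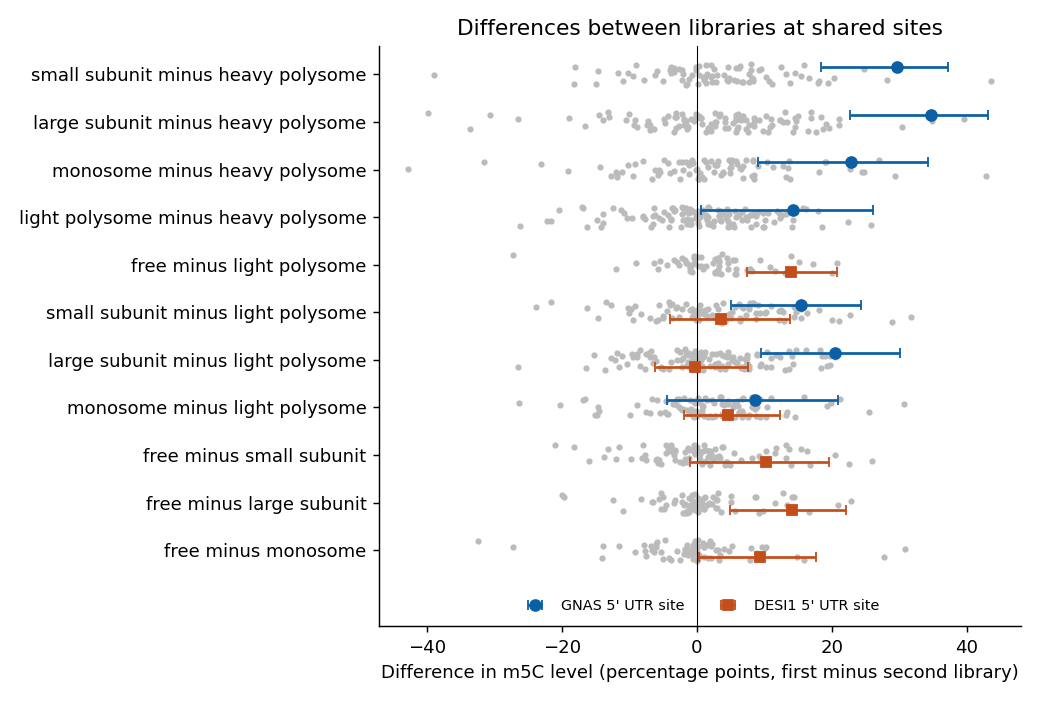
Difference in m5C level in percentage points (first minus second library) for each of the 11 pairs compared, with GNAS and DESI1 and their 95% Newcombe intervals over grey points for all sites shared by the pair. GNAS lies far to the right of most sites in the comparisons with heavy polysomes, at 34.7 points for the large subunit library, and the DESI1 interval lies above 0 where the free library is set against the large subunit, monosome or light polysome library.

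Reads were then summed, with the free library and those of the small and large subunits on one side and the polysome libraries on the other, so that a site contributed each library in which it was listed. GNAS had 45.7% of 1227 reads on the lighter side and 23.1% of 156 reads in polysomes, a difference of 22.6 points (14.9 to 29.2, Fisher's exact test, adjusted p = 9.81e-07). DESI1 had 21.3% of 409 reads and 13.3% of 466 reads, a difference of 7.97 points (2.96 to 13.0, exact test, adjusted p = 0.0189). Of 178 sites tested, 26 (14.6%) passed, 20 of them higher on the lighter side, and the median difference of all was 2.12 points. GNAS had the 4th largest difference and DESI1 ranked 34. The lighter side of GNAS held the small and large subunit libraries alone, and the polysome side of DESI1 held light polysomes alone. The sums and ranks thus set unlike sets of libraries side by side. The DESI1 result rested on the free library, since without it the difference was 1.28 points (exact test, adjusted p = 0.998). A chi-square test of equal levels over the libraries in which a site was listed called both sites, with 25 of 179 sites called (14.0%) and a median span of 9.29 points from highest to lowest level. GNAS spanned 34.7 points and DESI1 14.1 points. Without the heavy polysome library GNAS spanned 20.5 points and was still called. DESI1 was no longer called without the free library, when it spanned 4.81 points, or without the light polysome library.

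The read coverage of the members moved along the gradient in different ways, and coverage sets the precision of every level above. For GNAS it went from 853 reads in the small subunit library to 374, 110, 94 and 62 reads in the following fractions. It was the 19th best covered site of the small subunit library and the 124th of the heavy polysome library. DESI1 had 217 reads in the free library, 77, 115 and 140 in the next 3, and 466 in light polysomes, where it ranked 18. Coverage was then divided by a library factor, the median over the 31 sites listed in all 6 libraries of a site's coverage relative to its mean. On that scale GNAS had 534 scaled reads in the small subunit library and 58.4 in light polysomes, a ratio of 9.14. DESI1 had 48.2 in the small subunit library and 290 in light polysomes, a ratio of 6.01 in the opposite direction. These ratios depended on the factor. With the summed coverage of the same sites as factor they became 2.15 and 25.5, in unchanged directions. Such coverage reflects both how much of the transcript is in a fraction and how well this stretch of it was sequenced, which cannot be told apart here. At GNAS the unscaled coverage fell from fraction to fraction, and the scaled coverage was 58.4 in light and 62.8 in heavy polysomes, while the level was highest in the large subunit library and lowest in heavy polysomes. The part of coverage in the level was not tested.

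**Figure D4:**
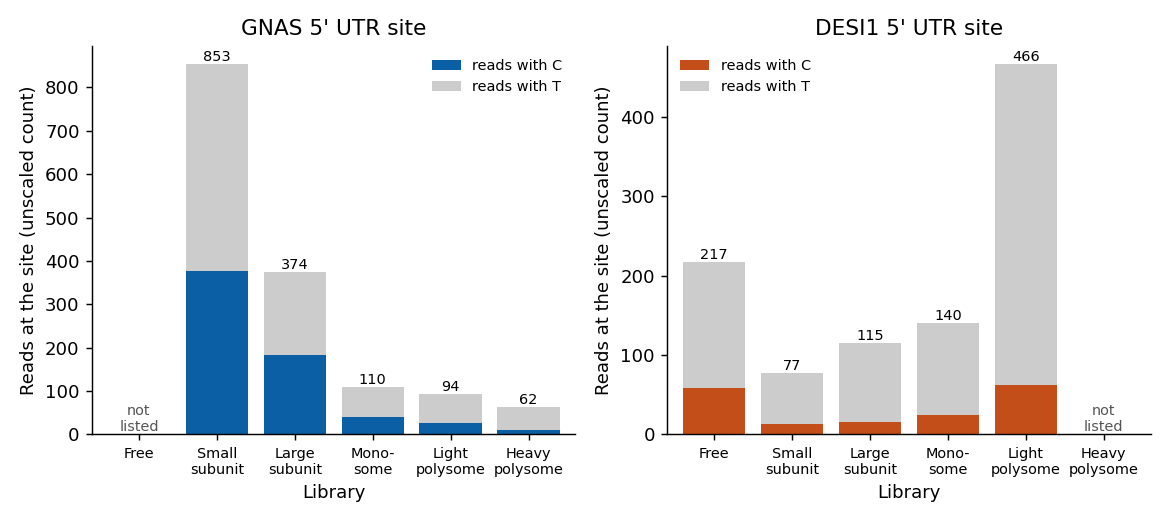
Reads read as C (methylated) and as T (converted) at the 5′ UTR sites of GNAS and DESI1 in each library, as stacked bars of unscaled read counts with the total above each bar. GNAS has 377 C and 476 T reads in the small subunit library and 9 C and 53 T reads in heavy polysomes, and DESI1 has most reads in light polysomes, 62 C and 404 T.

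DESI1 had 1 further listed site, in the 3′ UTR in exon 6 of DESI1-201. It was listed in the monosome library alone, at 10.4% (5 of 48 reads, 4.53 to 22.2%). This is just inside the limits of the lists, whose lowest level was 10% and whose fewest C reads were 5. Nothing just outside the limits is in the lists. The bases around this site also occur at many other places in the genome, so the placement of its reads in DESI1 is uncertain. With 1 listing it entered no comparison. The nearest member value above it was that of the DESI1 5′ UTR site in the large subunit library, 13.0%. GNAS had no further listed site among the 598 C of GNAS-211.

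Sites in 5′ UTRs were a small class, with 57 sites in 55 genes, with 45 Type I and 12 Type II sites among them. Of them, 32 (56.1%) were listed in 1 library only, a share not far from that of all sites (268, 49.4%). Whether the shares differ was not tested. GNAS and DESI1 were among the 5 listed in 5 or more libraries. The other 3 are described by their levels. CAMK2N1, whose product inhibits calmodulin-dependent kinase II, was listed in all 6 libraries at 44, 30.3, 27.4, 43.8, 23.9 and 30.5% from free RNA to heavy polysomes. The free and monosome values of CAMK2N1 rested on 25 and 48 reads. Summed levels of CAMK2N1 did not differ past the threshold between the lighter side and polysomes. RABL6, a Rab-like GTPase gene, was listed at 31.6, 40.2, 36.8, 41.3 and 41.0% from the small subunit library, with 38 reads, to heavy polysomes. Its summed levels did not differ past the threshold between the lighter side and polysomes. The readthrough gene NME1-NME2, with a Type II site and up to 20012 reads, stayed between 10.8% and 12.5%. The contexts of these sites are shown to set beside those of GNAS and DESI1, with 21 nt each and the capitals as before.
CAMK2N1: gcggcgtcccCCGGcctctcg
RABL6: ggctgaggttCCCGagtcgcc
NME1-NME2: cgcccggcccCTCCagcttcc
They lay at positions 20812016 on the minus strand of chromosome 1, 139702478 on the plus strand of chromosome 9 and 49243846 on the plus strand of chromosome 17. Their distances to the start codon were 144, 171 and 17 nt. Besides the members, 13 sites in 5′ UTRs were listed on both sides of the summed comparison. Of these, 9 were higher on the lighter side and 4 lower, 1 was called higher and 0 lower, and their median difference was 0.942 points. The one called was CES2, which encodes a carboxylesterase, with 28.6% of 49 reads against 10.1% of 159 (Fisher's exact test, adjusted p = 0.0197). The lighter side of CES2 held the large subunit library alone and its polysome side light polysomes alone. Its 10.1% was the lowest level of any listed 5′ UTR site in light polysomes, next to the 10% limit of the lists. CES2 is named here after its values were seen.

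**Figure D5:**
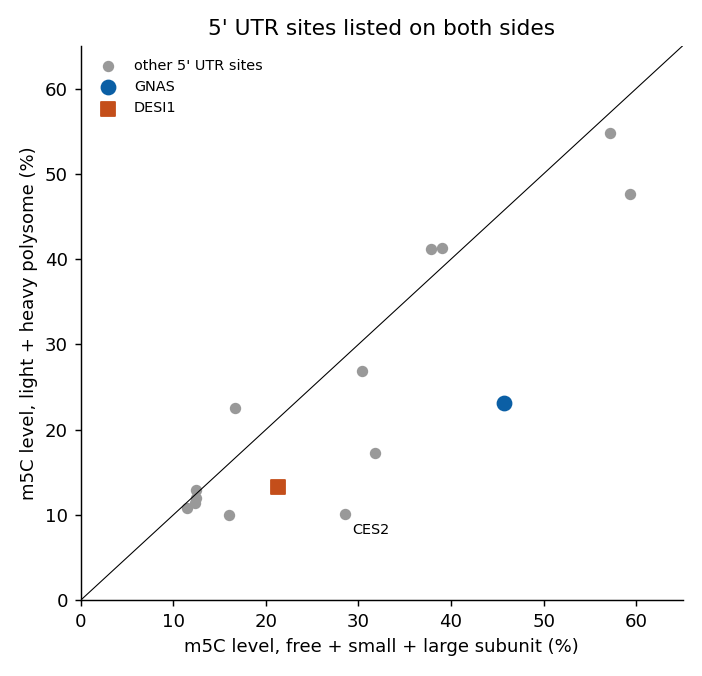
Summed m5C level (percent) on the lighter side (free, small and large subunit libraries) on the x axis against that in the polysome libraries on the y axis, for the 5′ UTR sites listed on both sides. Each point sums only the libraries that listed the site, so GNAS lacks the free library and DESI1 lacks heavy polysomes. CES2 has the large subunit library alone on the x axis and light polysomes alone on the y axis. GNAS (45.7 against 23.1%), DESI1 (21.3 against 13.3%) and CES2 (28.6 against 10.1%) lie below the line of equal levels.

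The study describes mRNA m5C in terms of predicted stem-loops, so the 101 nt around each site were folded for minimum free energy. The methylated C was predicted to be paired at GNAS and at both DESI1 sites, although at the DESI1 3′ UTR site it was unpaired with 25 nt on each side. At GNAS its partner lay 18 nt downstream, 1 of the next 3 bases was paired, and the free energy was -58.9 kcal/mol. At the DESI1 5′ UTR site the partner also lay 18 nt downstream, all 3 next bases were paired, and the free energy was -40.2 kcal/mol. Of the Type I sites, 209 of 339 (61.7%) had a paired C, against 52 of 189 Type II sites (27.5%) and 29 of 57 sites in 5′ UTRs (50.9%). The median free energy of Type I sites was -36.9 kcal/mol, and 10 of them had a lower value than GNAS. The paired state of the C at both 5′ UTR sites held with 25 or 75 nt on each side, but the partner did not always hold. With 25 nt the partner was unchanged at GNAS and lay 10 nt downstream at DESI1. With 75 nt the partner lay 70 nt downstream at GNAS and 55 nt upstream at DESI1. The predicted hairpins are therefore given as a description only.

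The sites whose course over the libraries was most like that of the members were found by subtracting each site's own mean level and taking the root mean square difference over the 5 libraries listing the member. For GNAS the nearest of 59 candidates was QARS, a glutaminyl-tRNA synthetase gene with a Type I site in coding sequence, at 5.11 percentage points. Its levels were 62.8% in the small subunit, 59.0% in the large subunit, 60.7% in the monosome, 44.8% in the light and 38.0% in the heavy polysome library. BAG6, which encodes a chaperone for membrane proteins, followed at 6.63 points with a Type II site, and MVD, of the mevalonate pathway, at 7.20 points with a Type I site. The median candidate was 11.7 points away. All 3 sites lay in coding sequence and had lower levels in both polysome libraries than in the small and large subunit libraries. For DESI1 the nearest of 37 candidates were ATP5SL at 3.14 points, the translation initiation factor gene EIF4B at 3.37 and the mitochondrial carrier gene SLC25A39 at 3.46, against a median of 6.11. All were Type II sites in coding sequence with the highest level in the free library, such as 17.1% for EIF4B there and 11.5% in light polysomes. These sites were chosen by the likeness of their course, so the course they share with a member is no separate result. A likeness over 5 libraries is a description and carries no test.

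The sites of other genes in the pathways of the members were then looked up in lists of textbook members. None of 48 further genes of G protein and cAMP signalling had a listed site in any library, and none of 10 genes for RNA m5C enzymes and readers had one. Of 23 genes for SUMO conjugation and removal, 1 was listed. This was PIAS4, a SUMO ligase gene, with a Type II site in coding sequence listed only in heavy polysomes at 22.8% of 79 reads. Only 501 genes had a listed site in the whole series, so few or none would be looked for in lists this short. A gene without a listed site may also have been too thinly covered, so these counts are no measure of methylation in the pathways.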

How the data were processed

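Members and gene lists were chosen with earlier results of these data known. Per the submitters' processing notes, cutadapt 1.13, Trimmomatic 0.36, HISAT2 2.10, Bowtie2 2.2.9 and SAMtools were used with GRCh37. Per the study's methods, the authors removed reads with many unconverted cytosines and genes resistant to conversion; whether coverage was counted after that removal is not given in the sources used here, and it could change the levels. The deposited coverage is a count of reads with C or T, unscaled. The deposited m5C level is the fraction with C. The deposited binomial p-value (at most 0.000242) was read only for its range. C reads, as level times coverage, were whole at all 1222 listings. Of 542 sites, 541 had C in the genome used (the other lies on a contig not used here), 534 were in genes matched by identifier and 528 were placed in exons of GENCODE 44. Depth limits precision to the Wilson and Newcombe intervals given, at 95%. Reads had no molecular identifiers. Pairs and sums were tested by two-sided Fisher's exact test, and levels over 3 or more libraries by chi-square with no expected count under 1, both adjusted by Benjamini-Hochberg and tested on simulated data. The simulated reads varied by counting error alone and passed no listing limit. That check therefore does not cover spread between libraries or the choice of listed sites. Alternatives were other coverage minimums, protein-coding genes alone, another adjustment, leaving out libraries, other coverage factors and other folding windows. Sites named were, by rule, all sites of both genes, the 3 other 5′ UTR sites listed in most libraries, the 3 nearest patterns per gene and listed genes of the fixed lists; CES2 was added after its values were seen. The sequence around the DESI1 3′ UTR site is not reported here. Analyses used Python 3.11.15, numpy 2.4.6, scipy 1.17.1, pandas 2.3.3, matplotlib 3.10.9 and RNAfold 2.7.2.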

Additional observations from a re-analysis of the deposited data

How the results depend on the processing

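Of 93 alternative values for the members, 78 stayed on their side of the threshold or within their spread, 6 fell below it, 1 rose above it, 8 moved and 0 reversed. Differences between pairs of libraries used the same reads in every setting, so they could not change. Spans over libraries have no sign and could not reverse either. The tally is therefore no measure of how stable the results are. Under Benjamini-Yekutieli adjustment of the exact test GNAS lost its calls for monosome minus heavy polysome (22.8 points, adjusted p = 0.0522) and small subunit minus light polysome (15.5 points, 0.254), the latter also with protein-coding genes alone (0.0504). DESI1 gained the call for free minus large subunit (14.1 points) at 50 or more reads (exact test, adjusted p = 0.0440). Without the free library DESI1 differed by 1.28 points in the summed comparison and spanned 4.81 points over libraries, while the GNAS span was 20.5 points, still called, without heavy polysomes. Without light polysomes the DESI1 span of 14.1 points was no longer called. Sites called fell from 26 to 13 in the summed comparison and from 25 to 16 over libraries without heavy polysomes, where fewer libraries entered. Benjamini-Yekutieli adjustment, stricter by construction, called 9 sites against 18 for small subunit minus heavy polysome, 9 against 18 for monosome minus heavy polysome, 5 against 9 for monosome minus light polysome and 3 against 7 for free minus monosome. Tests of protein-coding genes alone called 4 against 7 for free minus monosome and 1 against 2 for free minus small subunit. With summed coverage as factor the coverage ratios were 2.15 for GNAS and 25.5 for DESI1; the cause was not tested. Of the next 3 bases, 3 were paired at GNAS with 75 nt on each side, and 2 at the DESI1 5′ UTR site with 25 or 75 nt. At the DESI1 3′ UTR site 0 were paired with 25 nt, where the C was also unpaired (0), and 1 with 75 nt. No paired analysis was possible because each fraction had 1 library and the labels share no replicate numbers. Of the GNAS and DESI1 5′ UTR values, that of GNAS in heavy polysomes had the lowest depth, 62 reads.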
